A study of Mus musculus with 384 samples.

Results

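The genes examined here were Aspn, Tgfbi, Enpp2, Stc1, P2ry14 and Mustn1, a set of 6 genes named as markers of duct myofibroblasts and picked by name from 23422 measured genes. All 6 were measured in every well, and all 6 passed the filter on low counts of edgeR in every comparison, while Stc1 missed that of limma in Acta2-low cells between lines. They were followed by mouse line and, among cells with an Acta2 level of at least 9, by whether Actc1 was detected, with the mouse as the replicate. Levels per cell are log2(TPM + 1), where TPM is a transcript abundance corrected for transcript length and scaled to the same total in each cell.

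Myofibroblasts of the alveolar duct are contractile mesenchymal cells that ring the openings of alveoli and lay down elastic fibers. They share smooth muscle actin, the product of Acta2, with the smooth muscle that wraps airways, whereas Actc1, a cardiac-type actin, is found in the airway smooth muscle of the mouse. Several of the 6 gene products are secreted. Aspn encodes a small leucine-rich proteoglycan of the matrix, Tgfbi a matrix protein induced by TGF-beta, Enpp2 autotaxin, the enzyme that makes lysophosphatidic acid outside cells, and Stc1 a glycoprotein hormone. P2ry14 encodes a receptor for UDP-sugars at the cell surface, and Mustn1 a small nuclear protein of muscle and skeleton.

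Single cells came from lungs of Lgr5-CreERT2;R26-Tom mice after induction and of Lgr6-EGFP-CreERT2 mice, with 2 mice per line. The labels give an age of 7 to 10 weeks for most experiments of the study. In both lines CD31-CD45-CD11b-TER119- cells were sorted, on Tom in the Lgr5 line and on GFP in the Lgr6 line. In the paper Tom is a lineage label from the Rosa26 reporter allele after induction of the Lgr5 Cre. GFP there reports current activity of the Lgr6 locus. A line is thus a reporter and a gate, not a cell type, and the 2 reporters differ in kind. The filters of the study kept 29 and 28 cells from Lgr5 mice 1 and 2, and 50 and 75 from Lgr6 mice 1 and 2, of 380 single-cell wells.

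Reads of Lgr5 were present in 23 of 29 and 21 of 28 Lgr5-line cells, and in 11 of 50 and 28 of 75 Lgr6-line cells. At a TPM of at least 1, Lgr5 was found in 20 of 29 and 20 of 28 Lgr5-line cells. In the Lgr6 line it then stood in only 4 of 50 and 11 of 75 cells. Reads of Lgr6 were present in 13 of 50 and 26 of 75 cells of its own line, and in 8 of 29 and 9 of 28 Lgr5-line cells. The Lgr6 transcript was thus found in a similar share of both lines. The filters of the study required tdTomato reads in both lines, so all kept cells have them, with a lowest level of 5.04 in the Lgr6 line. The labels of that line name EGFP and no Tom allele. Among its removed wells, tdTomato reads were present in 27 of 45 of mouse 1 and in 12 of 20 of mouse 2.

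Depth was uneven. The median total count per cell was 263129 and 272729 in Lgr5 mice 1 and 2, and 332588 and 1537590 in Lgr6 mice 1 and 2. Counts are reads without molecular identifiers, so the intervals given below, exact (Clopper-Pearson) at 95%, cover counting error only. The ribosomal RNA gene Rn45s took 26.7% and 25% of counts in Lgr5 mice 1 and 2, against 32.3% and 37.5% in Lgr6 mice 1 and 2. No pair of kept cells had identical counts.

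Acta2 reached 9 in 100 cells and stayed below it in 82. The nearest values on either side were 9.19 and 8.996, and 18 cells lay within 0.5 of the limit. Lgr6 mouse 1 had 15 Acta2-high cells without Actc1 reads (Actc1-), 20 with them (Actc1+) and 15 Acta2-low cells. Lgr6 mouse 2 had 20, 32 and 23 such cells. The Lgr5 mice had 3 and 6 Acta2-high Actc1- cells, 3 and 1 Actc1+ cells, and 23 and 21 Acta2-low cells. The Acta2-high groups of the Lgr5 line were not tested and are described only, and their Actc1+ group held under 3 cells in mouse 2.

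In the GRCm38 assembly with GENCODE vM21 genes, Aspn lies on chromosome 13 from 49544443 to 49567565 and Tgfbi on the same chromosome from 56609523 to 56639562. Mustn1 (chromosome 14, 30879200 to 30881610) and Stc1 (chromosome 14, 69029238 to 69041804) share another. Enpp2 lies on chromosome 15 from 54838901 to 54952892 and P2ry14 on chromosome 3 from 59113855 to 59153618. Aspn overlaps Cenpp and P2ry14 overlaps Med12l on the opposite strand, and Stc1 and Enpp2 overlap the noncoding genes Gm41192 and Gm26684. Reads in exons shared with these partners cannot be told apart without strand.

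RefSeq promoters of GRCm38.p6, 250 bases before to 50 after a start, matched 4 of the 6 genes, namely Aspn, Tgfbi, Mustn1 and P2ry14, and none matched Enpp2 and Stc1. Those of Aspn, Tgfbi and Mustn1, all on the + strand, are shown because limma called these 3 genes higher in both Acta2-high groups than in Acta2-low cells of the Lgr6 line. Capitals mark TATAAA or CATTCC, searched on both strands together with TGANTCA and the CArG box. They span chr13:49544193-49544492, chr13:56609336-56609635 and chr14:30879007-30879306.
Aspn: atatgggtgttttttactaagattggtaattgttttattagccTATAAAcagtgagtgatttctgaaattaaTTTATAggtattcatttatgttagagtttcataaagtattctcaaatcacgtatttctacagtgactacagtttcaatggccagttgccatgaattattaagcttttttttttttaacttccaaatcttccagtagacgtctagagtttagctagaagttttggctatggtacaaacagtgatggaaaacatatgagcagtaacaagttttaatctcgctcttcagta
Tgfbi: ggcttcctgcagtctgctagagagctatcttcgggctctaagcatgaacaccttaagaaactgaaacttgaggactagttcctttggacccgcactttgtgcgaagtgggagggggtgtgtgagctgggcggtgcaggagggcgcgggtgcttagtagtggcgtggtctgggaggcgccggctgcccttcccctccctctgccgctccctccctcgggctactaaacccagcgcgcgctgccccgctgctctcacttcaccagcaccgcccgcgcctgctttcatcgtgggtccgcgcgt
Mustn1: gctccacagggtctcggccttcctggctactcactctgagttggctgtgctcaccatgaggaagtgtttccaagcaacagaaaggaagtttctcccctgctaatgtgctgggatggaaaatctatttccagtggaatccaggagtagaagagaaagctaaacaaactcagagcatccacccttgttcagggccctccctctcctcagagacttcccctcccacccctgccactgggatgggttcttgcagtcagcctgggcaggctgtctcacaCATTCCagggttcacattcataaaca
TATAAA occurred in 13.6% of 32851 promoters of this length, CATTCC in 14.7%, TGANTCA in 7.81% and the CArG box in 1.63%. Aspn held 2 TATAAA matches and Mustn1 held 1 CATTCC match, while the Tgfbi window held none of the 4 motifs. P2ry14 has 4 such windows, of which 2 held TGANTCA and 1 held TATAAA.

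The comparison of lines asks how the 6 genes stand in cells marked by Lgr5 and by Lgr6. Enpp2 stood higher in the Lgr5 line. Its mean level over cells was 9.68 and 9.81 in Lgr5 mice 1 and 2 and 7.49 and 7.05 in Lgr6 mice 1 and 2. Both Lgr5 mice lay above both Lgr6 mice. In all wells with at least 2000 genes, which include wells the filters removed, the gap was smaller, at 7.69 and 7.87 against 7.30 and 6.74. Enpp2 reads were found in 86.2% (68.3% to 96.1%) and 92.9% (76.5% to 99.1%) of Lgr5-line cells, and in 74% (59.7% to 85.4%) and 82.7% (72.2% to 90.4%) of Lgr6-line cells. These intervals overlapped. Counts summed over the cells of a mouse were scaled to library totals (CPM), which TMM (trimmed mean of M-values) adjusted within each comparison, unless library size alone is named. Here Enpp2 reached 3851 and 3821 CPM in Lgr5 mice 1 and 2, against 1976 and 1074 CPM for Lgr6 mice 1 and 2. The log2 fold change, Lgr5 over Lgr6, was 1.33 (SE 0.37, n = 2 mice per line), with a Benjamini-Hochberg adjusted p of 0.327 over all genes tested in edgeR, so it did not pass.

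Across the 14086 genes tested, edgeR called 0 genes (0%) and 0 of the 6 genes, with 1312 genes at an unadjusted p under 0.05. By DESeq2, 564 genes passed (4%), also none of the 6. On mean log2(TPM + 1) per mouse, limma called 1116 of 6511 genes (17.1%), and Enpp2 was the 1 gene of the set among them, with a difference of 2.47 and an adjusted p of 0.000661. Without the filter on low counts edgeR also called Enpp2, at 1.35. Its adjusted p ran from 0.000661 to 0.835 over the alternatives tried. With a mouse left out edgeR called 34 genes without Lgr6 mouse 1, 7 without Lgr6 mouse 2 and 0 without either Lgr5 mouse, and none of the 6 in these fits.

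Among the matrix genes, Tgfbi averaged 7.39 and 8.29 in the Lgr5 mice against 6.97 and 6.21 in Lgr6 mice, without overlap. In all wells with at least 2000 genes the lines overlapped for Tgfbi, at 5.93 and 6.96 against 6.83 and 5.96. In summed counts of kept cells it stood at 848.2 and 1605 CPM against 850.9 and 724.7 CPM, where the lines overlapped, with a log2 fold change of 0.64 (SE 0.41). By library size alone they did not, at 898.3 and 1594 CPM against 824.1 and 702.2 CPM. Aspn averaged 6.14 and 6.23 in the Lgr5 mice against 7.13 and 6.91 in Lgr6 mice, so here the Lgr6 mice were higher. In all wells with at least 2000 genes this gap was wider, at 4.67 and 4.56 against 6.91 and 6.53. The summed counts of Aspn overlapped, at 560 and 769.6 CPM against 935.3 and 727.1 CPM, with a log2 fold change of -0.32 (SE 0.37). Neither fold change passed the test.

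The hormone gene Stc1 was scarce, at mean levels of 1.08 and 0.63 in the Lgr5 mice against 1.04 and 0.56 in Lgr6 mice, values that overlapped. It was detected in 9 of 29 and 6 of 28 Lgr5-line cells and in 9 of 50 and 7 of 75 Lgr6-line cells. In summed counts it stood at 13.8 and 1.52 CPM against 43.9 and 20.04 CPM. Few cells carried these sums, and the fold change of -2.07 (SE 1.35) did not pass.

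The receptor gene P2ry14 averaged 4.68 and 5.47 in the Lgr5 mice against 6.13 and 5.64 in Lgr6 mice. The nuclear protein gene Mustn1 averaged 7.27 and 7.59 against 8.34 and 7.85. Both were higher in the Lgr6 mice per cell without overlap. In summed counts P2ry14 stood at 341.9 and 430.9 CPM against 253.3 and 367.7 CPM, and Mustn1 at 359.5 and 875.6 CPM against 690.3 and 587.9 CPM. The lines overlapped for both genes there, but by library size alone P2ry14 was higher in both Lgr5 mice, at 362.1 and 428.1 CPM against 245.4 and 356.3 CPM. The fold changes were 0.32 (SE 0.42) for P2ry14 and -0.05 (SE 0.49) for Mustn1. In an exact two-sided permutation test over mice on mean levels, 5 of the 6 genes had p = 0.3333, the smallest that 2 against 2 mice allow, and Stc1 had p = 0.6667. The lines did not overlap for these 5 genes, nor for 58.4% of the 6511 genes that passed the filter on mean levels.

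**Figure D1:**
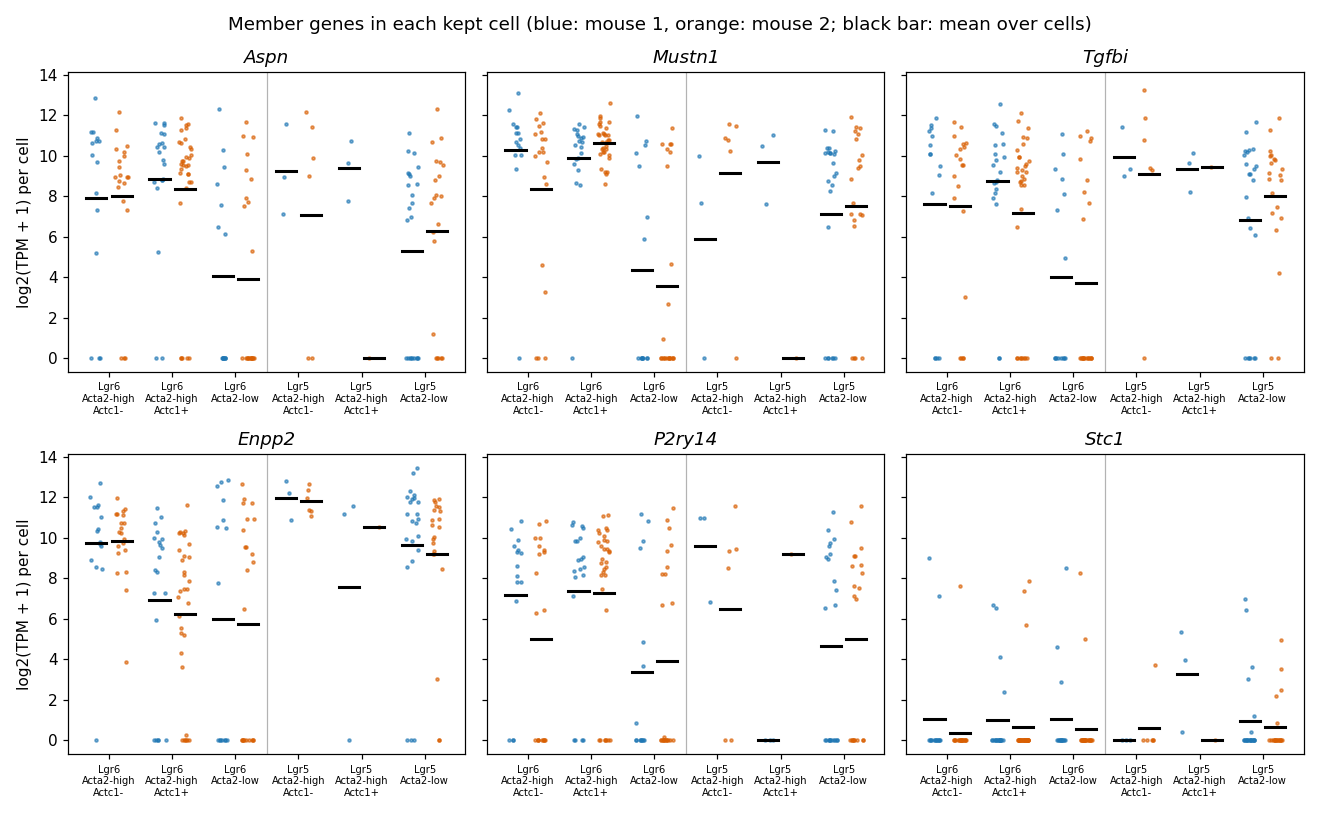
Level of each gene, log2(TPM + 1), in each kept cell by line, group and mouse, with blue for mouse 1, orange for mouse 2 and black bars for means over cells. Acta2-high Lgr6-line cells form a high band for 5 genes, with some cells at 0. P2ry14 is at 0 in 9 of 20 Actc1- cells of mouse 2. Enpp2 spreads from 0 to 11.60 in Actc1+ cells of mouse 2, with a median of 7.41. Acta2-low Lgr6-line cells split between 0 and the high band, and Stc1 is at 0 in most cells of nearly every group.

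The next comparison asks whether the genes differ, among Acta2-high cells, between those with and without the cardiac-type actin. In the Lgr6 line Enpp2 was higher in Actc1- cells of both mice. Enpp2 averaged 9.75 in 15 Actc1- cells and 6.93 in 20 Actc1+ cells of mouse 1. In mouse 2 it averaged 9.83 in 20 Actc1- cells and 6.25 in 32 Actc1+ cells. The gap was 2.82 and 3.58 on the log2 scale. In summed counts Enpp2 stood at 2506 and 1951 CPM in Actc1- cells of mice 1 and 2, and at 604.9 and 591.9 CPM in Actc1+ cells. The groups did not overlap over mice, but the share of all genes without such overlap was not counted in this comparison. The log2 fold change, Actc1- over Actc1+, was 1.85 (SE 0.48, n = 2 mice), and with an adjusted p of 0.869 in edgeR it did not pass.

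In this comparison edgeR called 0 of 13371 genes (0%) and 0 of the 6, with 722 genes at an unadjusted p under 0.05. By DESeq2, 738 genes passed (5.52%) and none of the 6, and limma called 7 of 7489 genes (0.0935%) and none of the 6. With a pseudocount of 0.1 in place of 1, limma called Enpp2, with a difference of 3.85 and an adjusted p of 0.0445. The adjusted p of Enpp2 ran from 0.0445 to 0.983 over the alternatives.

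The summed level of adventitial fibroblast genes was also higher in Actc1- cells of both mice. In CPM scaled by library size alone, the 7 genes of that list summed to 473.7 and 947.7 CPM in Actc1- cells of mice 1 and 2, to 72.1 and 71.7 CPM in Actc1+ cells, and to 2610 and 650.9 CPM in Acta2-low cells. The most abundant gene in Actc1- cells was Col14a1 in mouse 1 and Dcn in mouse 2. Only 4 of the 7 genes had reads there in each mouse. Cd34 and Serpinf1 were at 0 in both mice, Ly6a in mouse 1 and Pi16 in mouse 2. Of 6 tested genes of the list 0 passed in edgeR and 3 were higher in Actc1- cells at an unadjusted p under 0.05, with a median log2 fold change of 2.33 against -0.15 for all genes tested. Their part in the Enpp2 difference was not tested.

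Enpp2 was detected in 14 of 15 (93.3%, 68.1% to 99.8%) and 20 of 20 Actc1- cells, and in 15 of 20 (75%, 50.9% to 91.3%) and 27 of 32 (84.4%, 67.2% to 94.7%) Actc1+ cells. The intervals of the groups overlapped within each mouse. After thinning to 99000 reads per cell the shares were 92.3% and 94.7% of Actc1- cells and 64.3% and 74.2% of Actc1+ cells. Of the 52 Actc1+ cells, 5 had Actc1 below 5.0, and their Enpp2 means were 11.03 in 1 cell of mouse 1 and 8.81 in 4 cells of mouse 2. The remaining Actc1+ cells averaged 6.72 and 5.88, below those 5 cells.

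Across these Acta2-high cells Enpp2 ran against Actc1, with Spearman rho of -0.59 over 35 cells of mouse 1 and -0.62 over 52 cells of mouse 2. It also ran against Acta2, with rho of -0.61 and -0.39. Cells of a mouse are not replicates and differ in depth, so these values are descriptions. Acta2 itself, which set the groups, averaged 11.11 and 11.08 in Actc1- cells and 12.56 and 12.75 in Actc1+ cells. The Lgr6 transcript was detected in 8 of 35 Actc1- and 26 of 52 Actc1+ cells of this line.

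The matrix gene Aspn stood lower in Actc1- cells of both mice, by less than Enpp2 differed, with 7.90 and 8.02 against 8.87 and 8.38 in Actc1+ cells. Its log2 fold change in summed counts was -0.25 (SE 0.36), and 0.05 without mouse 2. Tgfbi averaged 7.62 and 7.53 in Actc1- cells and 8.73 and 7.18 in Actc1+ cells, with a fold change of 0.01 (SE 0.38). The sign of Tgfbi differed between mice and, for a fold change this near 0, between settings of the test.

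P2ry14 averaged 7.20 and 4.998 in Actc1- cells and 7.39 and 7.27 in Actc1+ cells, with a fold change of -0.64 (SE 0.51). Mustn1 averaged 10.26 and 8.33 in Actc1- cells and 9.88 and 10.64 in Actc1+ cells, with a fold change of -0.52 (SE 0.49). For P2ry14 the gap lay mainly in mouse 2, and for Mustn1 the sign of the gap in mean levels differed between mice, at 0.38 in mouse 1 and -2.31 in mouse 2. In mouse 2 Mustn1 was read in 32 of 32 Actc1+ cells and 17 of 20 Actc1- cells. P2ry14 was read there in 25 of 32 Actc1+ cells and 11 of 20 Actc1- cells. Stc1 was detected in 3 of 35 Actc1- and 7 of 52 Actc1+ cells.

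**Figure D2:**
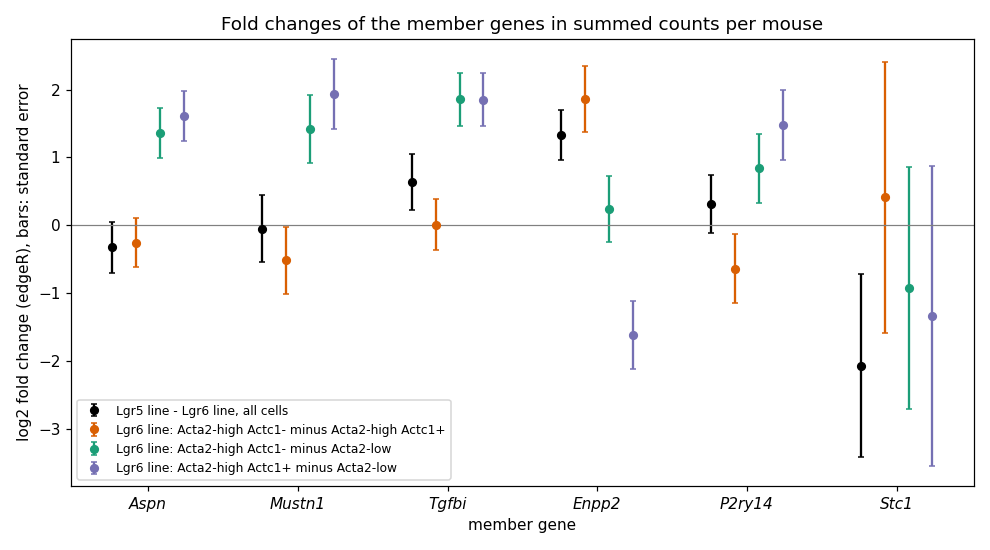
Log2 fold changes of the 6 genes from edgeR on counts summed per mouse, with bars for the standard error, in the comparison of lines (black) and in 3 comparisons of cell groups within the Lgr6 line. Enpp2 is positive against Actc1+ cells (orange, 1.85) and negative for Actc1+ against Acta2-low cells (purple, -1.61, but 0.72 by limma on mean levels), while Aspn, Mustn1, Tgfbi and P2ry14 are positive for both Acta2-high groups against Acta2-low cells, apart from P2ry14 in Actc1- cells after thinning (-0.11).

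Against Acta2-low cells of the same mice, both Acta2-high groups stood higher for the matrix genes. Tgfbi stood at 1103 and 828.3 CPM in Actc1- cells of mice 1 and 2, at 967.7 and 948.3 CPM in Actc1+ cells, and at 227.1 and 304.6 CPM in Acta2-low cells. Aspn stood at 1091 and 720.5 CPM, at 1053 and 1043 CPM, and at 429.5 and 277.2 CPM in the same groups. Both Acta2-high groups lay above the Acta2-low cells in each mouse, and how many of all genes did so was not counted. For Actc1- over Acta2-low cells the log2 fold change was 1.86 (SE 0.39) for Tgfbi and 1.36 (SE 0.37) for Aspn, with adjusted p of 0.575 and 0.701 in edgeR. For Actc1+ cells the changes were 1.85 (SE 0.39) and 1.61 (SE 0.37), with adjusted p of 0.374 and 0.463 in edgeR. None of these passed.

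The share of cells with reads differed in the same direction. Tgfbi was read in 11 of 15 and 16 of 20 Actc1- cells, in 18 of 20 and 24 of 32 Actc1+ cells, and in 7 of 15 and 9 of 23 Acta2-low cells. Aspn was read in 12 of 15 and 17 of 20, in 18 of 20 and 27 of 32, and in 7 of 15 and 10 of 23 cells of these groups. In Acta2-low cells the median level of both genes was 0 in each mouse, while the highest cells reached 11.08 and 11.20 for Tgfbi and 12.28 and 11.65 for Aspn. These highest Acta2-low cells lay within the range of Acta2-high cells.

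Mustn1 had fold changes of 1.42 (SE 0.50) in Actc1- cells and 1.94 (SE 0.51) in Actc1+ cells over Acta2-low cells. P2ry14 had fold changes of 0.84 (SE 0.51) and 1.48 (SE 0.52). In summed counts Enpp2 was split, at 0.24 (SE 0.48) for Actc1- and -1.61 (SE 0.49) for Actc1+ cells. On mean levels the sign for Actc1+ cells turned, with Actc1+ cells above Acta2-low cells by 0.95 and 0.50 in mice 1 and 2. Its Acta2-low value differed between mice, with 3361 CPM in mouse 1 and 911.4 CPM in mouse 2. Without mouse 1 the Enpp2 change of Actc1- cells was 0.99 and that of Actc1+ cells -0.70, and without mouse 2 they were -0.44 and -2.49. Stc1 had fold changes of -0.92 (SE 1.78) and -1.33 (SE 2.20).

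For Actc1- against Acta2-low cells edgeR called 6 of 13371 genes (0.0449%) and 0 of the 6 genes described here, with 855 genes at an unadjusted p under 0.05. For Actc1+ against Acta2-low cells, a comparison added after the data were seen, it called 16 genes (0.12%) and again 0 of the 6, with 906 genes at an unadjusted p under 0.05. By DESeq2, 1012 (7.57%) and 842 genes (6.3%) passed, and none of the 6 in either. Limma on mean levels called 2.16% and 5.8% of 7489 genes. Its calls held 4 of the 6 genes each time, Aspn, Mustn1, Tgfbi and Enpp2 for Actc1- cells, and Aspn, Mustn1, Tgfbi and P2ry14 for Actc1+ cells. Sums weight deep and high cells, whereas mean log levels weight each cell alike and move with the share of cells that have reads. After thinning, edgeR called Enpp2 for Actc1+ against Acta2-low cells, with a fold change of -1.79 and an adjusted p of 0.0241, in a range of 0.0241 to 0.796 over the alternatives. On mean levels limma gave Enpp2 the opposite sign in this comparison, at 0.72, and at 1.46 with a pseudocount of 0.1, neither of them called.

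Acta2-low Lgr6-line cells were mixed. In mouse 1, 6 of 15 held reads of at least 4 of the 6 genes and 3 held none, and in mouse 2 the numbers were 10 and 7 of 23. Among Acta2-high cells of this line, 13 of 15 and 14 of 20 Actc1- cells and 16 of 20 and 28 of 32 Actc1+ cells held at least 4, and 0 held none. Of the Acta2-low cells, 10 had Epcam or Sftpc, epithelial genes, at a level of at least 5, and 1 of them held at least 4 of the set. A further 10 had Pdgfra, a fibroblast receptor gene, at that level, and 0 of them did. Of the 18 cells with neither marker, 15 held at least 4, and Enpp2 was detected in 17, at a mean of 10.47. Over these 18 cells Aspn averaged 7.09, Tgfbi 6.75, P2ry14 7.26 and Mustn1 7.05. In the same order, the 10 cells with an epithelial gene averaged 0.95, 2.34, 0 and 0.47. The 10 with Pdgfra averaged 1.41, 0, 1.05 and 1.55. As means over mice, Acta2-high Actc1- cells stood at 7.96, 7.58, 6.10 and 9.30, and Actc1+ cells at 8.62, 7.96, 7.33 and 10.26. This split by other markers was made after the data were seen and carries no test.

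**Figure D3:**
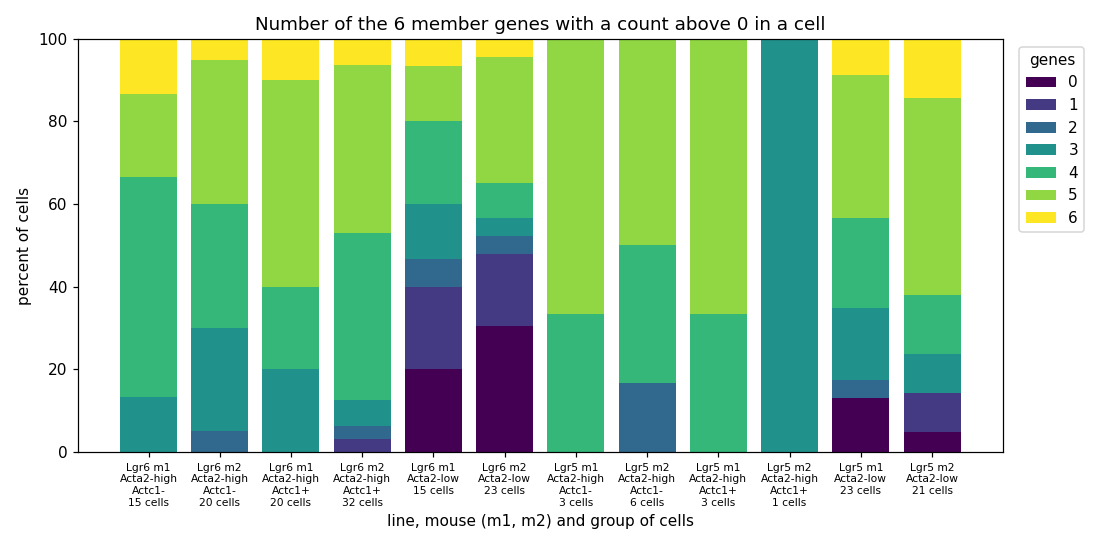
Percent of cells by how many of the 6 genes had a count above 0, in each line, mouse and group, with the number of cells under each bar and m1 and m2 for the mice. Acta2-high Lgr6-line bars hold no cell without any of the genes, while 20% and 30.4% of Acta2-low Lgr6-line cells have none.

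Markers of other cells were spread unevenly over the Lgr6-line groups, in CPM scaled by library size alone. The 7 epithelial genes summed to 10.5 and 15.5 CPM in Actc1- cells of mice 1 and 2, to 2.93 and 1.69 CPM in Actc1+ cells, and to 4505 and 31963 CPM in Acta2-low cells, with Sftpc the most abundant there. All 7 were read in Acta2-low cells of both mice, against 3 and 5 in Actc1- and 5 and 4 in Actc1+ cells, where Epcam was at 0. This list had 1 gene lower in each Acta2-high group than in Acta2-low cells by edgeR, Sftpc. The 9 alveolar fibroblast genes summed to 191.5 and 72.8 CPM, to 140.9 and 147.9 CPM, and to 2657 and 5545 CPM in the same groups. Of 6 immune genes Lyz2 made up 2171 of 2176 and 9802 of 9807 CPM in Acta2-low cells, while Ptprc was limited by the filters of the study. Tyrobp, Cd52 and Coro1a had no reads in Acta2-low cells of either mouse. Without cells with Epcam or Sftpc, an alternative added after the data were seen, edgeR called 0 genes for Actc1- and 8 genes for Actc1+ cells, and none of the 6. The log2 fold changes of Actc1+ over Acta2-low cells were then 1.63 for Tgfbi, 1.34 for Aspn, 1.69 for Mustn1, 1.19 for P2ry14 and -1.84 for Enpp2. Those of Actc1- cells were 1.67, 1.11, 1.20, 0.59 and 0.0098 in the same order. The part of the fibroblast and immune genes in these contrasts was not tested. The 8 vascular mural genes summed to 251.2 and 202.4 CPM, to 227.0 and 387.9 CPM, and to 282.1 and 83.01 CPM. Of 5 tested mural genes 0 passed and 4 were higher in each Acta2-high group than in Acta2-low cells, 2 of them, Mcam and Cspg4, at an unadjusted p under 0.05. The median log2 fold change of the list was 1.59 for Actc1- and 7.46 for Actc1+ cells. Mcam led the list in Actc1+ cells and was at 0 in Acta2-low cells of both mice, and Notch3 of this list was at 0 in every group of this line.

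Within the Lgr5 line the genes were also read in Acta2-low cells. Enpp2 averaged 9.66 and 9.21 in 23 and 21 Acta2-low cells of mice 1 and 2, against 5.98 and 5.75 in Acta2-low cells of the Lgr6 mice. Mustn1 averaged 7.13 and 7.51 against 4.38 and 3.54, and Tgfbi 6.81 and 8.0 against 3.98 and 3.70. Aspn averaged 5.31 and 6.29 against 4.06 and 3.92, and P2ry14 4.64 and 4.998 against 3.38 and 3.94. For these 5 genes both Lgr5 mice lay above both Lgr6 mice, while Stc1 overlapped, and the lines did not overlap in either direction for 53.2% of 6857 genes. In summed counts the lines overlapped for Enpp2, at 3389 and 3072 CPM against 3622 and 900.0 CPM, and also for Aspn and Mustn1. By library size alone Enpp2 did not overlap, at 3820 and 3246 CPM against 2999 and 886.9 CPM, while Aspn and Mustn1 still did. The TMM factor of Lgr6 mouse 1 was 0.832 in this comparison and 0.894 in those within its line, where the same cells gave 3361 CPM. Of Acta2-low Lgr5-line cells, 15 of 23 and 16 of 21 held at least 4 of the 6 genes.

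In a comparison of lines within Acta2-low cells, also added after the data were seen, edgeR called 0 of 12090 genes (0%) and 0 of the 6, with 871 genes at an unadjusted p under 0.05. By DESeq2, 384 genes passed (3.18%) and none of the 6, and limma on mean levels called 414 of 6857 genes (6.04%), with Mustn1, Tgfbi and Enpp2 among them. In summed counts the largest fold change of these 3 was 1.40 (SE 0.62), for Tgfbi, with 0.97 (SE 0.78) for Mustn1 and 0.51 (SE 0.59) for Enpp2. Aspn stood at 0.12 (SE 0.67), and at -0.22 after thinning. P2ry14 stood at 0.85 (SE 0.74), and Stc1, with few reads, at -3.075 (SE 1.71). With a mouse left out edgeR called 54 and 33 genes without Lgr5 mouse 1 and 2, and 3 and 53 without Lgr6 mouse 1 and 2, with none of the 6 among them. Without cells with Epcam or Sftpc, again added after the data were seen, edgeR called 0 of 10276 genes. The fold changes were then 1.69 for Tgfbi, 1.66 for Mustn1, 1.33 for P2ry14, 1.14 for Enpp2, 0.55 for Aspn and -2.50 for Stc1.

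Markers of other cells also differed between the lines, in CPM by library size alone. Over all kept cells the epithelial genes summed to 48096 and 28390 CPM in Lgr5 mice 1 and 2 against 1259 and 10711 CPM in Lgr6 mice, again led by Sftpc. The immune genes summed to 4553 and 7144 CPM against 610.4 and 3303 CPM, nearly all of it Lyz2, at 4551 and 7118 CPM in the Lgr5 mice. Of the 3 tested immune genes none passed, with log2 fold changes of 1.51 (SE 0.72) for Lyz2, 12.24 for Coro1a, which had no reads in the Lgr6 mice, and -5.96 (SE 2.24) for Cd68. The 4 measured erythroid genes summed to 312.6 and 423.1 CPM against 0.104 and 2.16 CPM. Adventitial fibroblast genes summed to 1012 and 1539 CPM against 897.7 and 473.7 CPM, though 3 of 7 tested genes of that list had a positive fold change. These 4 sums, and that of mesothelial genes at 2.23 and 3.64 CPM against 0.208 and 0.016 CPM, were higher in both Lgr5 mice. The mural sum was lower in both, at 57.1 and 225.8 CPM against 249.5 and 241.7 CPM, and the alveolar fibroblast and endothelial sums overlapped. Apart from the fit without Epcam or Sftpc in Acta2-low cells, their part in the differences between lines was not tested. Epcam or Sftpc reached 5 in 16 of 44 Acta2-low Lgr5-line cells. Of these 16, 8 held at least 4 of the 6 genes, and of the 28 Acta2-low cells with neither marker 23 did. Pdgfra reached 5 in 1 of 23 and 1 of 21 Acta2-low cells of Lgr5 mice, against 4 of 15 and 6 of 23 of Lgr6 mice. Acta2-low cells with neither an epithelial marker nor Pdgfra numbered 15 and 13 for Lgr5 against 6 and 12 for Lgr6. In them the lines overlapped for Enpp2, at 10.47 and 10.80 against 11.91 and 9.74. They also overlapped for Aspn (5.69 and 7.09 against 6.22 and 7.52) and Mustn1 (7.77 and 8.57 against 8.80 and 6.17). Tgfbi was higher in both Lgr5 mice, at 7.45 and 8.61 against 6.07 and 7.09, and P2ry14 lower, at 6.18 and 5.54 against 7.84 and 6.98. This split was made after the data were seen, and no test was run on it.

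The 9 Acta2-high Actc1- cells of the Lgr5 line had Enpp2 reads in every cell, with means of 11.97 in 3 cells of mouse 1 and 11.80 in 6 of mouse 2. These stood above the Acta2-low cells of the same mice. Actc1 was detected in 20 of 44 Acta2-low Lgr5-line cells, in mouse 1 with 23 counts in all.

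Ordered by the mean over mice, Enpp2 ran from 11.88 ± 0.12 (SD, n = 2) in Acta2-high Actc1- Lgr5-line cells to 9.79 ± 0.05 in the same group of the Lgr6 line and 9.43 ± 0.32 in Acta2-low Lgr5-line cells. Actc1+ cells of the Lgr5 line, 3 and 1 in number, followed at 9.05 ± 2.08, a spread that reaches the 9.79 and 9.43 of the groups before them. Actc1+ Lgr6-line cells came next at 6.59 ± 0.48 and Acta2-low Lgr6-line cells at 5.87 ± 0.17. Within the Lgr6 line Mustn1 ran from 10.26 ± 0.54 in Actc1+ and 9.30 ± 1.36 in Actc1- cells, which overlapped between mice, to 3.96 ± 0.59 in Acta2-low cells. Aspn ran from 8.62 ± 0.35 through 7.96 ± 0.09 to 3.99 ± 0.10 in the same order. Tgfbi stood at 7.96 ± 1.09 and 7.58 ± 0.06, values that overlapped between mice, and at 3.84 ± 0.20. P2ry14 stood at 7.33 ± 0.09, 6.10 ± 1.56 and 3.66 ± 0.39, and Stc1 at 0.82 ± 0.23, 0.73 ± 0.49 and 0.82 ± 0.34, which overlapped. In Acta2-high Actc1- cells of the Lgr5 line Tgfbi stood at 9.50 ± 0.58, Aspn at 8.15 ± 1.52, P2ry14 at 8.04 ± 2.20, Mustn1 at 7.52 ± 2.30 and Stc1 at 0.31 ± 0.44. Among these 5 genes, only for Tgfbi did both mice stand above both Lgr6 mice of that group.

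In Acta2-high Lgr6-line cells the highest mean rho over the 2 mice for a pair was 0.29, for Aspn with Tgfbi (0.32 and 0.26), and the lowest was -0.20, for Mustn1 with Enpp2. The genes most like Enpp2, among those read in at least 20% of these cells, were Cyp2e1 (mean rho 0.54), Cdkn1a (0.50) and Pde4b (0.49). Aspn was most like Golt1b, Timm17a and Tpi1, and Tgfbi most like Stau1, Golt1b and Cldn1. For Mustn1 the nearest were Lmx1a, Tll1 and 9530026P05Rik, and for P2ry14 Nedd9, Sec16a and Zfp78. Mean rho for these 4 genes was between 0.33 and 0.39, which is weak, and Stc1 was read in too few cells to rank.

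Genes around the set were read from fixed lists, described by counts and medians only. Of 9 tested genes of the autotaxin and lysophosphatidic acid list, 0 passed in edgeR between Actc1- and Actc1+ cells and 0 had an unadjusted p under 0.05, with a median log2 fold change of -0.04 against -0.15 for all genes tested. The phosphatase gene Ppap2b stood at 0.39 (SE 0.68) and the receptor gene Lpar1 at -0.13 (SE 0.63), next to 1.85 for Enpp2. Of 6 tested genes of the P2Y list 0 passed, with a median of -0.12. Of 15 TGF-beta genes 0 passed, with a median of 0.12, and Ltbp4, a latent TGF-beta binding protein gene, stood at 0.75 (SE 0.32), while Ltbp1 of the same family stood at -0.71 (SE 0.41). Of 8 relatives of the set 0 passed, with a median of 0.25 and 5 of them positive. At an unadjusted p under 0.05, 2 of the 8 were higher and 2 lower, next to 722 of all 13371 genes. The proteoglycan genes Ogn, Bgn and Dcn, kin of Aspn, stood at -1.56 (SE 0.33), -0.19 (SE 0.29) and 4.44 (SE 1.57).

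The duct and alveolar myofibroblast list had 11 tested genes and 0 calls, with a median of 0.40. Its most abundant gene, Hhip, an inhibitor of hedgehog signaling, stood at 0.40 (SE 0.23), and Igfbp5 at 1.84 (SE 0.72). The 11 tested airway smooth muscle genes had a median of -2.00 and 0 calls. Of these 11, 8 had an unadjusted p under 0.05, next to 722 of all 13371 genes. Among the 8 were Myl9 at -2.14 (SE 0.35) and Des at -2.17 (SE 0.31). Actc1 belongs to that list and is also among the 8. Its result follows from how the groups were set and is no evidence about the list. By smallest p the genes higher in Actc1- cells were Spon1, Thbs1 and Icam1, and those lower were Actc1, Itga8 and Cnn1.

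Between lines every one of these lists had 0 calls in edgeR. The median log2 fold change, Lgr5 over Lgr6, was -1.73 for 12 tested airway smooth muscle genes and -0.21 for 11 genes of the duct and alveolar myofibroblast list, against -0.05 for all genes tested. It was -0.57 for 10 autotaxin and lysophosphatidic acid genes, 0.07 for 6 P2Y genes, -0.30 for 8 relatives of the set and -0.0013 for 15 TGF-beta genes. At an unadjusted p under 0.05 the smooth muscle list had 6 genes lower and 1 higher in the Lgr5 line, next to 1312 of all 14086 genes.

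Against Acta2-low cells, the smooth muscle list had 1 call for Actc1- cells, Cnn1, and 5 calls for Actc1+ cells, which were Myl9, Actc1, Des, Cnn1 and Myh11. The call of Actc1 follows from how the Actc1+ group was set. Among relatives of the set Postn, a matrix gene related to Tgfbi, passed for Actc1+ cells (adjusted p 0.0361 in edgeR). Postn had no reads in Acta2-low cells of either mouse. In edgeR, lists of lysophosphatidic acid, P2Y, TGF-beta and other duct myofibroblast genes had 0 calls in both contrasts. For Actc1- cells 855 of 13371 genes had an unadjusted p under 0.05. Among them were 2 of 6 P2Y and 1 of 15 TGF-beta genes, all lower, and 3 of 11 duct genes, all higher. For Actc1+ cells 906 genes did. They held 3 of 9 lysophosphatidic acid and 1 of 6 P2Y genes, all lower. Of 15 TGF-beta genes 1 was higher and 2 lower, and of 11 duct genes 3 were higher and 2 lower. In the order lysophosphatidic acid, P2Y, TGF-beta and duct, medians were -1.61, -1.10, 1.52 and 0.78 for Actc1- cells, against -0.12 for all genes. For Actc1+ cells they were -2.16, -1.33, 0.84 and 0.39, against 0.055. By smallest p, Cnn1, Acta2 and Myh11 led the genes higher in Actc1- and in Actc1+ cells, and Sftpc, Sftpa1 and Sftpd led those lower. Acta2 stands there because its level set the groups.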

How the data were processed

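SmartSeq2 libraries of sorted single lung cells were read per well, 96 wells per mouse with 1 pool well each. Per the submitters' processing notes, reads were converted with bcl2fastq 2.17.1.14 and quantified with kallisto 0.43.0 on mm10. The authors summed transcript counts to gene counts, not normalized, and deposited these counts for all 384 wells. The deposited log2 values are log2(TPM + 1) for all wells and for the cells left by the authors' filters on genes detected, housekeeping genes, tdTomato, Ptprc and Pecam1. No doublet caller was run. The filtered log2 table held 22276 genes. A deposited table of scaled counts was not used here.

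Counts were added up over the kept cells of a mouse, or of a mouse's group of cells, and tested with edgeR 4.0.16 (TMM, filterByExpr, quasi-likelihood, Benjamini-Hochberg over all genes tested, threshold 0.05) in R 4.3.3. Groups within the Lgr6 line were Acta2 of at least 9 with Actc1 count 0, the same with Actc1 count above 0, and Acta2 below 9, fitted together with mouse as a block because the groups come from the same animal. DESeq2 1.42.0, limma 3.58.1 on mean log2 values (genes with a mean of at least 1 in at least 2 means), other scalings, thinned cells, other limits for Acta2 (8, 10) and Actc1 (1, 5) and each mouse left out were alternatives. The edgeR steps were tested on simulated data. Exact permutation tests used scipy 1.17.1. Total counts of kept cells ran from 9748 to 4538878, and thinning left out 19 cells.

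The 6 genes and all gene lists were chosen with earlier results of these data known. Other genes named were the 4 that set the lines and groups (Acta2, Actc1, Lgr5, Lgr6), at most 4 examples per list by mean CPM, the 3 genes most like each of the 6 by mean Spearman rho over the 2 Lgr6 mice, and the 3 smallest p in each direction within the Lgr6 line. Genes of the filters (tdTomato, Ptprc, Pecam1), markers that split the cells (Epcam, Sftpc, Pdgfra), Rn45s and genes overlapping the set were also named. Postn, Notch3, Cd34, Serpinf1, Ly6a, Pi16, Tyrobp, Cd52 and the called smooth muscle genes beyond those 4 examples were named after their values were seen. Marker lists covered vascular mural, alveolar and adventitial fibroblast, endothelial, immune, epithelial, mesothelial and erythroid cells. Endothelial, mesothelial and erythroid sums were at most 3.95 CPM in Acta2-high cells of the Lgr6 line.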

Additional observations from a re-analysis of the deposited data

Results flagged for a closer look

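Wells outside the comparisons also held reads of the 6 genes, which is why they are listed. In the 4 pool wells, 1 per mouse, the summed counts were 3748 for Aspn, 2527 for Mustn1, 3503 for Tgfbi, 3040 for Enpp2 and 689 for P2ry14, and Stc1 had 0. By mouse, Aspn had 4 and 0 counts in the Lgr5 pools and 230 and 3514 in the Lgr6 pools. Enpp2 had 9 and 1957 counts in the Lgr5 pools and 18 and 1056 in the Lgr6 pools. The pools had 353310 and 204948 counts in all in the Lgr5 line and 66586 and 2203576 in the Lgr6 line.

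In the single-cell wells removed by the filters, the summed counts were 17475 for Aspn, 16949 for Mustn1, 32988 for Tgfbi, 83845 for Enpp2, 8527 for P2ry14 and 630 for Stc1. Enpp2 was detected in 50 of 66 and 44 of 67 removed wells of Lgr5 mice 1 and 2, and in 19 of 45 and 7 of 20 of Lgr6 mice 1 and 2. Of the 66 and 67 removed wells of the Lgr5 line, 51 and 50 had Ptprc or Pecam1 at a TPM of at least 1. With 2 mice per line no mouse could be checked for standing apart.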

How the results depend on the processing

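Of 431 fold changes of the 6 genes recomputed under alternatives, 359 kept their direction and side of the threshold, 24 passed it, 11 moved by more than the standard error without a test and 37 changed sign. The causes were not tested. Cell shares stayed within their interval in 95 of 96 cases, while mean levels of a line moved by more than the SD over mice in 6 of 12 cases when all wells with at least 2000 genes were taken. Genes called, in percent of genes tested, were between lines 4.0 (DESeq2), 17.1 (limma), 18.6 (limma, pseudocount 0.1), 2.07 (no filter), 0.112 (thinned) and 0 to 0.217 with a mouse left out. Of the 6, limma (either pseudocount) and no filter called 1. For Actc1- against Actc1+ cells they were 5.52 (DESeq2), 0.0935 and 0.988 (limma, pseudocount 1 and 0.1) and 0.113 (thinned), and limma with 0.1 called 1 of the 6. For Actc1- against Acta2-low cells they were 7.57, 2.16, 3.58 and 0.283 in the same order, 0.00757 with cells weighted equally and 0 without cells with Epcam or Sftpc, and both limma fits called 4 of the 6. For Actc1+ against Acta2-low cells they were 6.30, 5.80, 6.97, 0.923 and, without Epcam or Sftpc, 0.0621, and the limma fits called 4 of the 6 and thinning 1. Between lines in Acta2-low cells they were 3.18 (DESeq2), 6.04 (limma, 3 of the 6), 0 without cells with Epcam or Sftpc and 0.0206 to 0.394 with a mouse left out.

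Signs changed as follows. Between lines, Mustn1 was 0.07 with DESeq2 (0.066 by its size factors) and 0.0176 with library size alone, and ran from -0.74 to 0.45 with a mouse left out. P2ry14 was -0.81 and -1.12, and Stc1 0.0605 and 0.40, in the 2 limma fits. For Actc1- against Actc1+ cells the limma fits gave Tgfbi -0.38 and -0.58 and Stc1 -0.0912 and -0.27. Tgfbi was also -0.0325 without filter, -0.0365 with cells weighted equally, -0.0197 with only those groups fitted, -0.0224 at an Acta2 limit of 8, and -0.12 and -0.14 at Actc1 limits of 1 and 5. With a mouse left out, with no test, Tgfbi ran from -0.23 to 0.19, Stc1 from -0.92 to 3.93 and Aspn from -0.57 to 0.0512. For Actc1- against Acta2-low cells Enpp2 was -0.35 thinned, -0.0141 with cells weighted equally and -0.16 at an Acta2 limit of 10, P2ry14 -0.11 thinned and Stc1 0.16 with cells weighted equally. A mouse left out gave Enpp2 -0.44 to 0.99 and Stc1 -1.36 to 0.14. For Actc1+ against Acta2-low cells Enpp2 was 0.72 and 1.46 in the limma fits, Stc1 0.00978 in the second, and Stc1 ran from -5.29 to 1.06 with a mouse left out. Between lines in Acta2-low cells Aspn was -0.22 thinned, and a mouse left out gave Aspn -0.23 to 0.52 and Enpp2 -0.19 to 1.81.

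Mouse numbers do not pair mice between lines. Deviations of same-numbered mice correlated at 0.0385 over 14086 genes, which are not independent replicates, and with mouse number as a replicate block edgeR called 0 genes between lines. Within the Lgr6 line the fit with no replicate block called 0 genes for Actc1- against Actc1+ cells and 6 for Actc1- against Acta2-low cells.

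With 2 mice per line or group, a miss of the threshold does not show that levels were alike. Where a mouse was left out between lines, the lone mouse of its line is assumed to vary like the others. The Lgr5 line was shallower than Lgr6 mouse 2, and Acta2-high Lgr5-line groups held 1 to 6 cells per mouse. In all wells with at least 2000 genes, mean Enpp2 was 7.78 in the Lgr5 and 7.02 in the Lgr6 line, where the kept cells gave 9.75 and 7.27. Shares of Stc1 rest on few reads, and 0 reads of Stc1 in the pools allow up to 1.36 to 45.1 CPM.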
